A study of Mus musculus with 9 samples.

Results

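Fc receptors and immunoglobulin transporters are the proteins through which immunoglobulin acts on cells and crosses the gut wall, and their transcripts were followed here in the jejunum of irradiated mice given intravenous immunoglobulin (IVIg). The genes were chosen by name and comprised the IgG receptors Fcgr1, Fcgr2b, Fcgr3 and Fcgr4, their signalling chain Fcer1g, the neonatal Fc receptor Fcgrt, the polymeric immunoglobulin receptor Pigr and the cytosolic antibody receptor Trim21, which makes 8 of the 31685 genes in the expression table. All 8 were among the 13056 genes tested, those with a level of 1 or more in at least 3 mice in FPKM, the fragments of a gene scaled to its length and to the total of its library.

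The tissue came from wild-type C57BL/6J mice, which the methods of the study describe as males 6 to 8 weeks old, and was taken on day 3. The control group had no treatment, the TAI group received total abdominal irradiation (TAI) with 12 Gy of X-rays and, according to the methods, phosphate-buffered saline, and the TAI/IVIg group received the same irradiation and 500 mg/kg of IVIg, a preparation made mainly of human IgG, within 1 h of it and every 3 days afterwards. Each group had 3 mice, numbered 1 to 3, and all 9 libraries carried the same batch label. No group received IVIg without irradiation, so an action of IVIg on unirradiated jejunum was not measured.

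Classical Fcγ receptors bind the Fc part of IgG on macrophages, neutrophils and other leukocytes. The mouse activating receptors encoded by Fcgr1, Fcgr3 and Fcgr4 signal through the γ chain, the product of Fcer1g, whereas Fcgr2b encodes the only inhibitory one and is also the Fcγ receptor of B cells. FcRn, encoded by Fcgrt, pairs with β2-microglobulin, rescues endocytosed IgG from degradation and carries it across epithelia. The product of Pigr moves dimeric IgA and pentameric IgM from the lamina propria to the gut lumen, and TRIM21 binds antibody that has entered the cytosol and directs the bound particle to the proteasome.

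Depth was similar in the 9 libraries, at 16280203 to 18242748 reads. The share of mitochondrial reads was 3.04% to 3.51% in control mice, 5% to 5.88% in TAI mice and 5.02% to 7.9% in TAI/IVIg mice. The tissue was labelled as jejunal epithelium, and the epithelial markers Epcam and Vil1 were high in every mouse, from 870 to 1748 FPKM and from 794 to 1157 FPKM, but smooth muscle markers were present too, with Acta2 at 44.2 to 305 FPKM. The libraries therefore held RNA of the gut wall beyond the epithelium, in which fewer cells of a type and less RNA per cell cannot be told apart. Smooth muscle transcripts (Acta2, Myh11, Des and Actg2 summed) were at 446 to 580 FPKM in control mice and 492 to 706 FPKM in TAI mice, and at 508, 273 and 103 FPKM in TAI/IVIg mice 1, 2 and 3, and TAI/IVIg mouse 3 was also lowest of all 9 in the fibroblast and endothelial sums. B cell transcripts (Cd79a, Cd79b, Ms4a1 and Pax5 summed) stood apart in control mouse 3, at 300.6 FPKM against 1.17 to 57.9 FPKM in the other 8 mice. Between groups the whole distribution shifted, since the median gene tested was lower by 0.24 on the log2 scale in TAI than in control mice (log2 fold change -0.24), and the corresponding medians were -0.13 for TAI/IVIg against TAI and -0.39 for TAI/IVIg against control. Each fold change below compares groups on the log2(FPKM + 1) scale, which understates the change of low genes, and a call means an adjusted p under 0.05 in limma after Benjamini-Hochberg adjustment over all genes tested. Mice were not paired by number in this fit.

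The receptors differed widely in level. In control mice, Pigr was the most abundant, with a mean of 122 ± 32.7 FPKM (SD, n = 3), followed by Fcer1g at 26.6 ± 2.36 FPKM and Fcgrt at 25.8 ± 0.475 FPKM, which did not differ beyond their spread. Fcgr4 had 11.1 ± 2.38 FPKM, Trim21 7.24 ± 2.64 FPKM and Fcgr3 5.76 ± 0.574 FPKM, and the least abundant were Fcgr2b at 4.24 ± 3.53 FPKM and Fcgr1 at 2.81 ± 0.529 FPKM. Fcgr4, Trim21, Fcgr3, Fcgr2b and Fcgr1 each overlapped with at least 1 neighbour in this order. The lowest FPKM of all, 0.669 for Fcgr2b in TAI/IVIg mouse 3, rested on 65 reads. In read counts the lowest was Fcgr1 in the same mouse, with 33 reads, and the highest Pigr, also in that mouse, with 31611 reads.

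**Figure D1:**
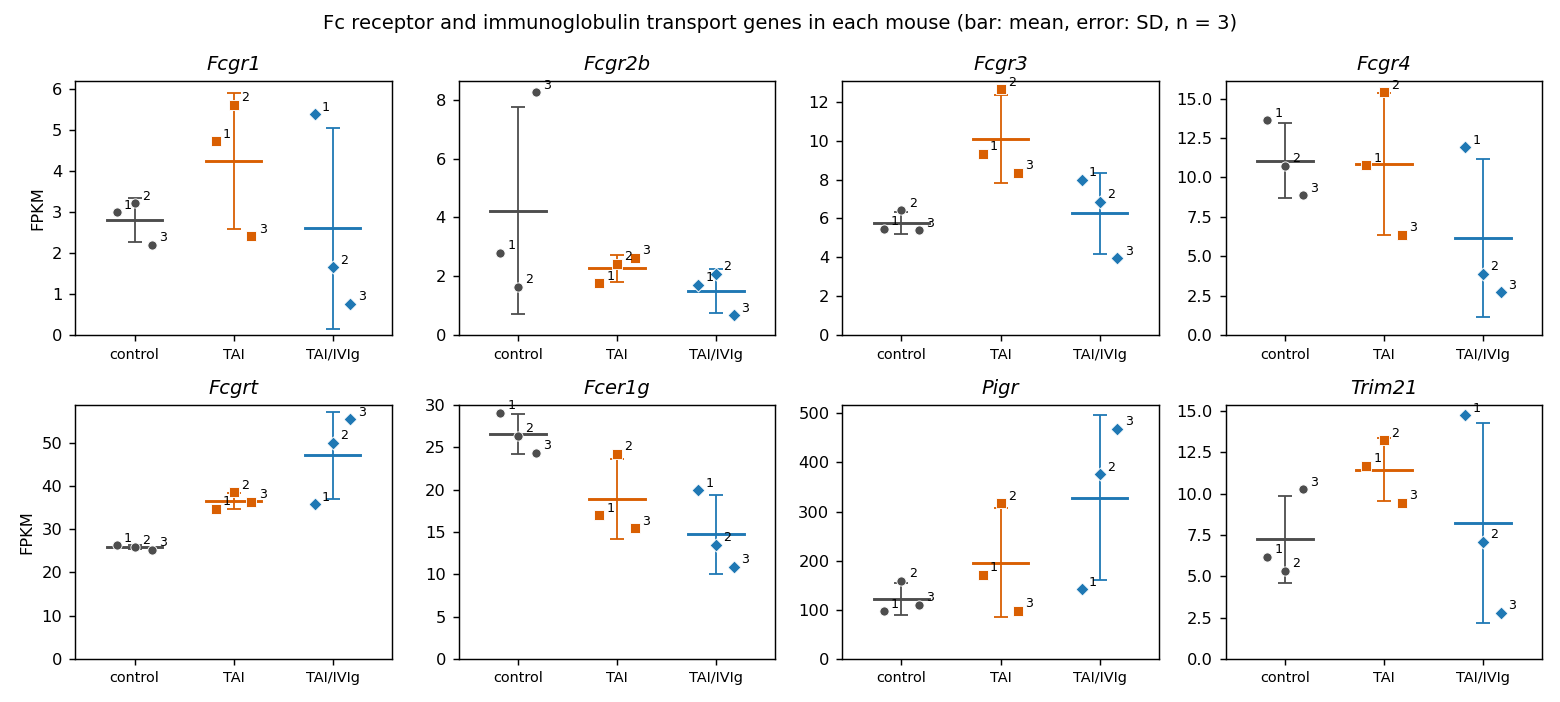
Level of each of the 8 genes in each mouse (vertical axis, FPKM from 0, with a separate range per panel) by group, where points are mice with their numbers, horizontal bars are group means and error bars are SD (n = 3). Fcgrt in every TAI and TAI/IVIg mouse lay above all control mice, and in Fcgr1, Fcgr4 and Trim21 the TAI/IVIg mice spread widely, with mouse 1 high and mouse 3 low.

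The activating receptors came first. Fcgr3 (ENSMUSG00000059498, chr1:171051174-171064935 on the minus strand, GRCm38) encodes FcγRIII, a low-affinity receptor found on most myeloid cells and on natural killer cells. It was at 5.47, 6.42 and 5.39 FPKM in control mice 1, 2 and 3, at 9.31, 12.6 and 8.34 FPKM in TAI mice, and at 7.98, 6.85 and 3.95 FPKM in TAI/IVIg mice. Every TAI mouse was above every control mouse and above every TAI/IVIg mouse, whereas control and TAI/IVIg mice overlapped. Compared with control mice, Fcgr3 rose in TAI mice by a log2 fold change of 0.70 (SE 0.23; limma adjusted p = 0.0452), a 1.75-fold ratio of mean FPKM. This call was near the threshold and was lost without any 1 of the 3 control mice, any 1 of the 3 TAI mice or TAI/IVIg mouse 2, with adjusted p between 0.054 and 0.142, while the log2 fold change stayed between 0.54 and 0.81. It was lost as well with no filter, with a pseudocount of 0.1 and in limma voom on library totals (adjusted p from 0.0505 to 0.0979). Between TAI/IVIg and TAI mice the log2 fold change was -0.64 (95% interval -1.17 to -0.11; limma adjusted p = 0.36), which did not pass the threshold. Groups that did not overlap, with TAI/IVIg lower, were seen in 16.1% of all genes tested in that comparison.

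Reads of Fcgr3 and Fcgr2b can be confused in part, because the exons for their extracellular domains are very alike. Of all runs of 50 bases in the annotated transcripts of Fcgr3, 9.58% also occurred in transcripts of Fcgr2b, and no other pair among the 8 genes shared such a run. In the other direction, 2.92% of the runs of Fcgr2b occurred in Fcgr3. How the deposited counts treated such reads is not given in the sources used here, so the values of this pair are uncertain to that extent.

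Fcgr1 (ENSMUSG00000015947, chr3:96282909-96293969, minus strand) encodes FcγRI, the high-affinity IgG receptor of monocytes and macrophages. Its level was 3.00, 3.21 and 2.21 FPKM in control mice 1, 2 and 3, 4.73, 5.62 and 2.41 FPKM in TAI mice, and 5.39, 1.66 and 0.760 FPKM in TAI/IVIg mice. The groups overlapped in every comparison, and the TAI/IVIg group held both one of the highest values and the lowest. The log2 fold change was 0.42 (95% interval -0.57 to 1.41; limma adjusted p = 0.475) in TAI against control and -0.71 (-1.69 to 0.28; limma adjusted p = 0.486) in TAI/IVIg against TAI.

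Fcgr4 (ENSMUSG00000059089, chr1:171018920-171029761, plus strand) encodes FcγRIV, a receptor of monocytes, macrophages and neutrophils that binds mouse IgG2. It measured 13.6, 10.7 and 8.88 FPKM in control mice, 10.8, 15.4 and 6.37 FPKM in TAI mice, and 11.9, 3.89 and 2.71 FPKM in TAI/IVIg mice. TAI/IVIg mice 2 and 3 were below the other 7 mice, and TAI/IVIg mouse 1 was within the control range. The difference between TAI and control mice was -0.08 on the log2 scale (95% interval -1.11 to 0.94; limma adjusted p = 0.897), and turned to 0.20 with library medians set equal. In TAI/IVIg mice Fcgr4 was not called against TAI (-0.87, -1.89 to 0.16; limma adjusted p = 0.428) or against control (-0.95, -1.98 to 0.07; limma adjusted p = 0.112), although without TAI/IVIg mouse 1 the latter came to -1.49 with a limma adjusted p of 0.0114.

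The promoter windows of the 8 genes, RefSeq sequences of GRCm38.p6 from 250 bases before to 50 after the transcription start, were searched on both strands for the core of the interferon-stimulated response element, which is GAAA, any 2 bases and GAAA again, and for the gamma-activated site, TTCNNNGAA. Both motifs are known from genes induced by interferon, and they are shown for the members that hold them. Within the irradiated groups, Fcgr1, Fcgr4 and Trim21 went with the level of interferon-stimulated genes, as described further on. So did Fcer1g, which held neither motif, whereas Pigr, which held a match, did not. The part of interferon in these levels was not tested. The first motif was found in 3.44% of all 32851 promoter windows (1131 windows) and in those of Fcgr4 and Trim21. The second was found in 8.3% of windows (2726) and in those of Fcgr1 and Pigr. No match was present in the windows of Fcgr2b, Fcgr3, Fcgrt and Fcer1g. In the sequences, written 5′ to 3′ on the strand of the gene, capitals mark the matched bases, and the 2 matches in Trim21 overlap. The stretches are chr3:96293970-96294119 (minus strand) for Fcgr1 and chr1:171018776-171018925 (plus strand) for Fcgr4, both upstream of the start, and chr7:102565446-102565475 (minus strand) for Trim21 and chr1:130826704-130826733 (plus strand) for Pigr, both in the 5′ untranslated region. A match describes letters and is no evidence of binding.
Fcgr1: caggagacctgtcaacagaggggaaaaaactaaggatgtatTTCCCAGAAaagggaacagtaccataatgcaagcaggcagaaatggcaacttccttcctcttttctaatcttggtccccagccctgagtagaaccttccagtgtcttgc
Fcgr4: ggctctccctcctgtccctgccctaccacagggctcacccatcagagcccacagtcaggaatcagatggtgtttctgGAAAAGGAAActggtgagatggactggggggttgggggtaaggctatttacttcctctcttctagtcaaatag
Trim21: tgagagGAAACTGAAAGTGAAAtttggact
Pigr: aatagtcaccagtagtgccTTCCTGGAAgc

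The inhibitory receptor was low and uneven. Fcgr2b (ENSMUSG00000026656, chr1:170958617-170976547, minus strand) had 2.80, 1.64 and 8.26 FPKM in control mice 1, 2 and 3, 1.76, 2.42 and 2.63 FPKM in TAI mice, and 1.72, 2.09 and 0.669 FPKM in TAI/IVIg mice. Control mouse 3 was above all other mice by a wide margin, and the groups overlapped in all 3 comparisons. The log2 fold change was -0.48 in TAI against control (95% interval -1.44 to 0.48; limma adjusted p = 0.401), -0.43 in TAI/IVIg against TAI (-1.39 to 0.53; limma adjusted p = 0.654) and -0.91 in TAI/IVIg against control (-1.87 to 0.05; limma adjusted p = 0.107). Control mouse 3 weighed on both comparisons with control, where without it the differences were 0.036 for TAI and -0.39 for TAI/IVIg. Without control mouse 2, on the other hand, Fcgr2b was called lower in TAI/IVIg mice (-1.30; limma adjusted p = 0.0369). In the same control mouse 3 other B cell transcripts were at their highest, as with Ighm at 325 FPKM against 1.68 to 121 FPKM in the other mice, Fcmr (the Fc receptor for IgM) at 52.1 FPKM against 0 to 10.8 FPKM, and Cd22 (an inhibitory lectin of B cells) at 34.3 FPKM against 0.260 to 6.47 FPKM. The part of B cells in the Fcgr2b values was not tested. The exons of Fcgr2b share 155 bases with an antisense gene, Gm38204, which was listed at 0 in 8 mice and at 0.0951 FPKM in TAI/IVIg mouse 2.

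The balance of activating and inhibitory receptors was described as the summed FPKM of Fcgr1, Fcgr3 and Fcgr4 divided by that of Fcgr2b. This ratio was 7.88, 12.4 and 1.99 in control mice 1, 2 and 3, 14.1, 13.9 and 6.51 in TAI mice, and 14.7, 5.92 and 11.1 in TAI/IVIg mice. The groups overlapped, with means of 7.42 ± 5.22, 11.5 ± 4.32 and 10.6 ± 4.41 (SD, n = 3). The lowest ratio belonged to control mouse 3, the mouse with the highest Fcgr2b.

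Fcer1g (ENSMUSG00000058715, chr1:171229572-171234365, minus strand) encodes the γ chain that the activating receptors need both to reach the cell surface and to signal. It was at 29.1, 26.4 and 24.4 FPKM in control mice, 17.0, 24.2 and 15.4 FPKM in TAI mice, and 19.9, 13.5 and 10.8 FPKM in TAI/IVIg mice. All 6 irradiated mice were below the lowest control mouse, TAI mouse 2 only narrowly. Compared with control mice, Fcer1g fell in TAI/IVIg mice, with a log2 fold change of -0.85 (SE 0.23; limma adjusted p = 0.0161), and in TAI mice it came to -0.50 (95% interval -1.02 to 0.02; limma adjusted p = 0.123), which was not a call. The call in TAI/IVIg mice depended on the scaling, and was lost once the library medians were made equal, where the difference was -0.36 on the log2 scale (limma adjusted p = 0.301), and likewise after quantile normalization and in limma voom with median-ratio library sizes (limma adjusted p = 0.109 and 0.249). It was also lost without TAI/IVIg mouse 3, at -0.66 with a limma adjusted p of 0.0568.

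Fcer1g and its receptor partners were also described by a ratio, without a test. Of these genes only Fcgr3 was called in TAI against control mice. The FPKM of Fcer1g divided by the sum of Fcgr1, Fcgr3 and Fcgr4 was 1.32, 1.30 and 1.48 in control mice 1, 2 and 3, 0.683, 0.720 and 0.901 in TAI mice, and 0.788, 1.09 and 1.46 in TAI/IVIg mice. All TAI mice were below all control mice, and the TAI/IVIg mice overlapped with both groups. As a ratio within each library, it was not touched by the scaling between libraries. The γ chain also serves C-type lectins, and of those listed only Clec4n (dectin-2) passed the filter on low values. Clec4n rose in TAI mice, from a mean of 3.01 to 6.02 FPKM (log2 fold change 0.86; limma adjusted p = 0.0486), although the groups overlapped. The call was near the threshold and was lost in limma voom on library totals (limma adjusted p = 0.0529) and in the fit of the 6 mice compared. It was also lost without control mouse 1 or 3, TAI mouse 1 or 2, or any 1 of the TAI/IVIg mice.

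**Figure D2:**
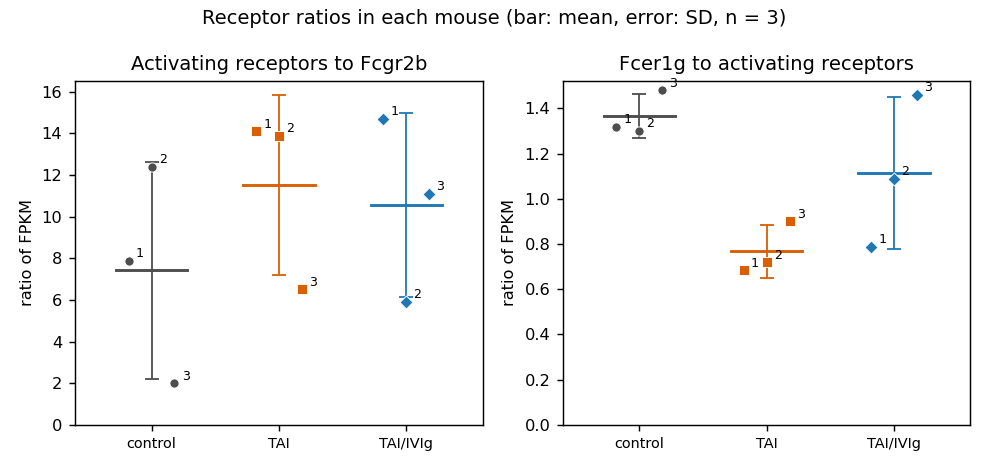
Receptor ratios in each mouse by group (vertical axes, ratio of FPKM from 0), with points for mice, horizontal bars for group means and error bars for SD (n = 3). On the left the ratio of activating receptors to Fcgr2b overlapped between groups, and on the right the ratio of Fcer1g to the activating receptors lay at 1.30 to 1.48 in control mice and at 0.683 to 0.901 in TAI mice.

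Myeloid markers, the transcripts of the cells that carry these receptors, changed in both directions. Of 11 macrophage and monocyte markers tested, 2 rose in TAI against control mice, namely Mertk (a receptor for apoptotic cells) and Cd14 (the co-receptor for lipopolysaccharide), and 3 fell, namely Ly6c2 and Ccr2, which mark inflammatory monocytes, and the lysosomal protein Cd68. Ly6c2 went from a mean of 9.23 to 1.79 FPKM (log2 fold change -1.86; limma adjusted p = 0.00177), and Mertk from 20.4 to 46.0 FPKM (1.14; limma adjusted p = 0.00463). Which cells of the tissue gave the Mertk transcripts was not tested. The summed level of the 11 markers was 164 to 175 FPKM in control mice, 156 to 187 FPKM in TAI mice and 108 to 173 FPKM in TAI/IVIg mice, and none was at 0 in all mice. Of this sum, Mertk made up 16.5 to 26.2 FPKM in control mice and 36.8 to 53.0 FPKM in TAI mice. Similar sums therefore do not show that the other markers were unchanged. In TAI against control mice, 8 of the 11 had a negative log2 fold change and 3 a positive one, where 33.6% of all genes tested were above 0. Neutrophil markers were low, summing to between 1.56 and 16.2 FPKM, and only 3 of 7 could be tested. Of these 3, 1 was called higher in TAI and 2 were called lower in TAI/IVIg against control mice. With library medians set equal, 1 was called higher and 0 lower in each of these comparisons. The part of these cells in the receptor values was not tested.

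FcRn transcripts were higher in every irradiated mouse than in any control mouse. Fcgrt (ENSMUSG00000003420, chr7:45092990-45103851, minus strand) was at 26.2, 25.8 and 25.3 FPKM in control mice 1, 2 and 3, 34.7, 38.5 and 36.3 FPKM in TAI mice, and 35.8, 50.01 and 55.4 FPKM in TAI/IVIg mice. TAI/IVIg mice 2 and 3 were above all TAI mice, and TAI/IVIg mouse 1 was inside the TAI range. Fcgrt rose in TAI against control mice by a log2 fold change of 0.49 (SE 0.16; limma adjusted p = 0.0435) and in TAI/IVIg against control mice by 0.82 (SE 0.16; limma adjusted p = 0.00383), which are 1.42-fold and 1.83-fold ratios of mean FPKM. The rise in TAI/IVIg mice was called under all 20 alternatives, at log2 fold changes of 0.69 to 1.33, whereas the rise in TAI mice was lost without any 1 control mouse, any 1 TAI mouse or TAI/IVIg mouse 2 (limma adjusted p = 0.0533 to 0.117), and with no filter (limma adjusted p = 0.0815). Against TAI mice, Fcgrt in TAI/IVIg mice differed by 0.34 (95% interval -0.03 to 0.70; limma adjusted p = 0.408), which was no call.

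Fcgrt and Fcgr3 were thus 2 of the 8 genes called in TAI against control mice, both higher (8.81% of all genes tested were called higher, 26.1% lower and 34.9% in either direction). The groups did not overlap in either gene, or in Fcer1g in the other direction, where TAI mice lay above all control mice in 15.1% of all genes and below them in 38%. Against control mice, the TAI/IVIg group had 2 of 8 called as well, Fcgrt higher and Fcer1g lower, where 46.4% of all genes were called, 9.06% higher and 37.4% lower. These were also the members whose groups did not overlap, which 11.5% of all genes showed with TAI/IVIg higher and 44.3% with TAI/IVIg lower. Counted in either direction, neither share of members exceeded that of all genes. Between TAI/IVIg and TAI mice, limma called 0 of 8, as it called 0% of all genes, and at an unadjusted p under 0.05 it listed 1 of 8, Fcgr3, against 12.9% of all genes. The directions of the calls over all genes turned with the scaling, from 1150 higher and 3411 lower to 2159 and 1823 with library medians set equal in TAI against control, and from 1183 and 4880 to 2880 and 1894 in TAI/IVIg against control. Comparisons with the control group share the control mice, and both comparisons with the TAI group share the TAI mice, so the 3 sets of values are not independent.

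**Figure D3:**
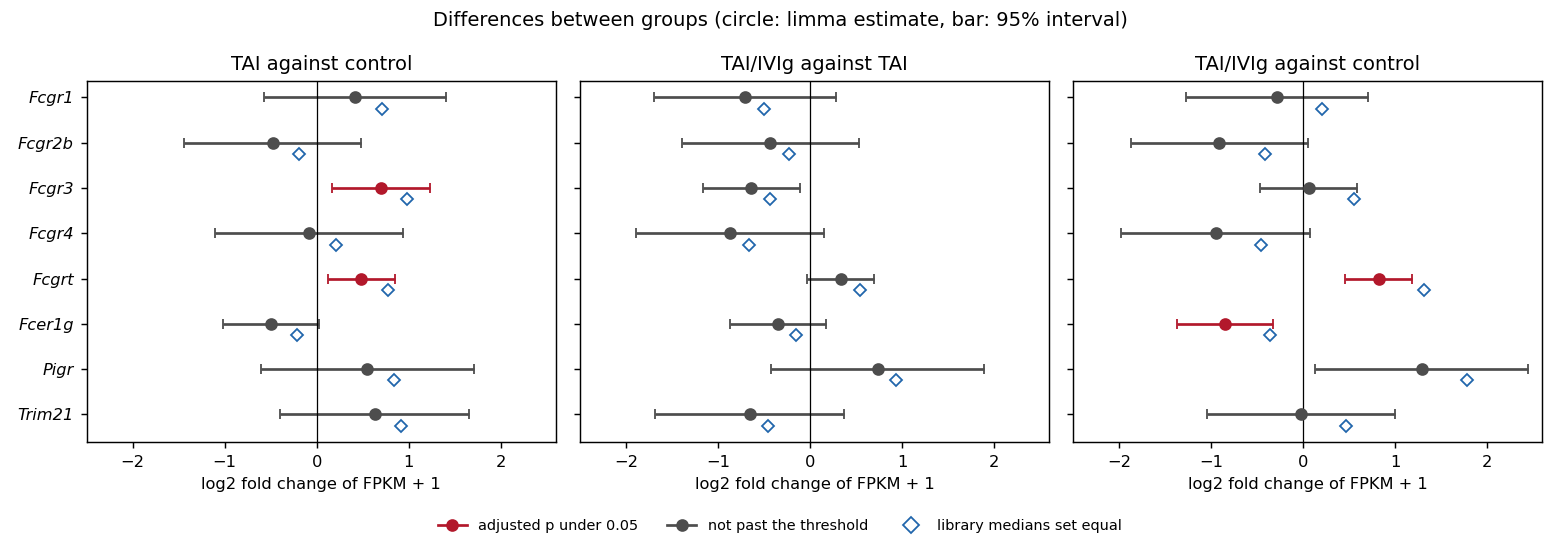
Log2 fold change of FPKM + 1 (horizontal axis) of each gene in the 3 comparisons, with circles for limma estimates, bars for 95% intervals, red for adjusted p under 0.05, and open diamonds for the same estimate with library medians set equal. Fcgrt was called in both comparisons with control mice, no gene was called in TAI/IVIg against TAI, and every diamond lay to the right of its circle.

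B2m, the partner chain of FcRn, did not follow Fcgrt. It was at 2798 to 3250 FPKM in control mice, 2229 to 2774 FPKM in TAI mice and 2720 to 3158 FPKM in TAI/IVIg mice, and was not called in any comparison. Among 10 tested genes of FcRn recycling, Rab11fip1, an adaptor of recycling endosomes, rose in TAI against control mice from a mean of 10.4 to 20.0 FPKM (0.89; limma adjusted p = 0.00546). The GTPase Rab25 and the retromer subunit Vps35 fell, by 0.84 and 0.57 on the log2 scale (limma adjusted p = 0.0397 and 0.00859). With library medians set equal neither fall was called. Against control mice, 2 of the 10 rose and 3 fell in TAI/IVIg mice, whereas with library medians set equal 4 were called higher and 0 lower.

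Pigr (ENSMUSG00000026417, chr1:130826684-130852249, plus strand) was the most abundant of the 8 transcripts in each mouse. Its level was 96.6, 159 and 110 FPKM in control mice 1, 2 and 3, 171, 317 and 98.1 FPKM in TAI mice, and 141, 376 and 468 FPKM in TAI/IVIg mice. TAI/IVIg mice 2 and 3 had the highest values of all, but mouse 1 of that group lay within the control range, so the groups overlapped. The mean of TAI/IVIg mice was 328 FPKM against 122 FPKM in control mice, at a log2 fold change of 1.29 (95% interval 0.13 to 2.45; limma adjusted p = 0.0664), which missed the threshold. With library medians set equal the log2 fold change was 1.78 and was called (limma adjusted p = 0.0243), and without TAI/IVIg mouse 1 it was 1.81 and was called too (limma adjusted p = 0.0162). The log2 fold changes for TAI against control, 0.55 (-0.61 to 1.71; limma adjusted p = 0.425), and for TAI/IVIg against TAI, 0.74 (-0.42 to 1.90; limma adjusted p = 0.527), were not called.

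Of 19 tested genes for pIgR transcytosis and induction, 5 rose and 2 fell in TAI against control mice. The count moved with the processing, to 8 higher and 1 lower with library medians set equal, 12 calls after quantile normalization, 11 in limma voom with median-ratio library sizes and 4 without TAI mouse 1. Il4ra, the receptor chain for interleukin-4, went from a mean of 18.3 to 45.4 FPKM (1.27; limma adjusted p = 0.0036), Irf1, an interferon-induced transcription factor, from 37.8 to 76.0 FPKM (0.99; limma adjusted p = 0.0113), and Relb, an NF-κB subunit, from 14.1 to 26.8 FPKM (0.87; limma adjusted p = 0.00261). Il17rc, a chain of the interleukin-17 receptor, fell from 61.4 to 22.2 FPKM (-1.43; limma adjusted p = 0.00056). The median log2 fold change of this list was 0.30, against -0.24 over all genes tested. Between TAI/IVIg and TAI mice, 0 of 19 were called, and the largest difference, Rab17 (a GTPase of epithelial transcytosis), was 0.52 (limma adjusted p = 0.373).

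The cargo of pIgR was measured as well. Igha, the heavy chain of IgA, was at 390 to 531 FPKM in control mice, 221 to 481 FPKM in TAI mice and 308 to 458 FPKM in TAI/IVIg mice. Jchain, which joins IgA and IgM into the polymers that pIgR binds, was at 144 to 179, 87.0 to 153 and 105 to 173 FPKM in the same order. Of the 8 heavy chain and J chain genes tested, 0 were called by limma in any comparison. The ranges of both genes overlapped between all groups.

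Both transporters can be expressed by epithelium, although which cells carried them here was not measured. Some of the epithelial markers were higher in irradiated mice too. Of 8 such markers, 4 rose in TAI and 6 in TAI/IVIg against control mice, among them the brush border phosphatase Alpi, from a mean of 162 to 441 and 535 FPKM, and the fatty acid binding protein Fabp1, from 437 to 1238 and 3509 FPKM. Others moved little, with Vil1 at means of 994, 953 and 1016 FPKM in control, TAI and TAI/IVIg mice, and Cdh1 at 246, 271 and 262 FPKM. The summed level was 13910 to 21770 FPKM in control, 30220 to 49550 FPKM in TAI and 42740 to 48980 FPKM in TAI/IVIg mice, with none at 0. Most of this sum came from Fabp2 and Apoa1. TAI/IVIg mice 2 and 3, which had the highest Fcgrt and Pigr, had the lowest smooth muscle sums. The part of tissue composition in the values of Fcgrt and Pigr was not tested.

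Trim21 (ENSMUSG00000030966, chr7:102557921-102565486, minus strand) had 6.17, 5.32 and 10.3 FPKM in control mice 1, 2 and 3, 11.7, 13.2 and 9.45 FPKM in TAI mice, and 14.8, 7.10 and 2.78 FPKM in TAI/IVIg mice. TAI/IVIg mouse 1 had the highest and mouse 3 the lowest value of all, and the groups overlapped in every comparison. The log2 fold change was 0.63 in TAI against control (95% interval -0.39 to 1.65; limma adjusted p = 0.3), -0.66 in TAI/IVIg against TAI (-1.68 to 0.37; limma adjusted p = 0.524) and -0.03 in TAI/IVIg against control (-1.05 to 1.00; limma adjusted p = 0.964). The last of these turned to 0.46 with library medians set equal.

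Of 12 genes with which TRIM21 works, 5 fell and 0 rose in TAI against control mice, with a median log2 fold change of -0.52, and 8 fell in TAI/IVIg against control mice. Of all genes tested, 26.1% were called lower in TAI and 37.4% in TAI/IVIg against control mice, with medians of -0.24 and -0.39. Vcp, the unfoldase that TRIM21 needs for virus neutralization, went from a mean of 83.5 to 30.8 FPKM (-1.41; limma adjusted p = 0.000479). Psmd14, a deubiquitinase of the proteasome lid, went from 44.4 to 16.4 FPKM (-1.39; limma adjusted p = 0.000848), and Mavs, the adaptor of RNA sensing, from 22.17 to 11.04 FPKM (-0.94; limma adjusted p = 0.0434). With library medians set equal, 3 of the 12 were called lower in TAI mice and 2 in TAI/IVIg mice.

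The levels of Trim21, Fcgr1, Fcgr4 and Fcer1g within the irradiated groups went with those of interferon-stimulated genes. The summed FPKM of 31 such genes was 3954, 2905 and 3707 in control mice 1, 2 and 3, 3264, 3668 and 1941 in TAI mice, and 4903, 1578 and 634 in TAI/IVIg mice. In the 6 irradiated mice, the 3 lowest sums were those of TAI/IVIg mice 3 and 2 and TAI mouse 3. These were also the 3 lowest mice for Trim21, Fcgr1, Fcgr4 and Fcer1g. In them Fcer1g, whose promoter window held neither motif, was at 10.85, 13.47 and 15.43 FPKM in that order. Cxcl9, a chemokine induced by interferon-γ, showed the same order in the TAI/IVIg group, at 38.4, 3.65 and 1.25 FPKM in mice 1, 2 and 3. With control mice included, the match with the sums was not kept. Control mice 1 and 3 had higher sums than TAI mice 1 and 2, but lower Trim21 and Fcgr1. Between TAI/IVIg and TAI mice, 29 of the 31 genes had a negative log2 fold change, with a median of -0.88 against -0.13 over all genes tested, 30.4% of which had a log2 fold change above 0, yet limma called 0 of the 31. In TAI against control mice 1 of 31 rose, Irf1, and 4 fell, among them Bst2 (tetherin), from a mean of 337 to 82.6 FPKM. A fit of the 6 mice compared called 11 of 31, with or without the pairing by number, and without control mouse 3 the count was 2.

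**Figure D4:**
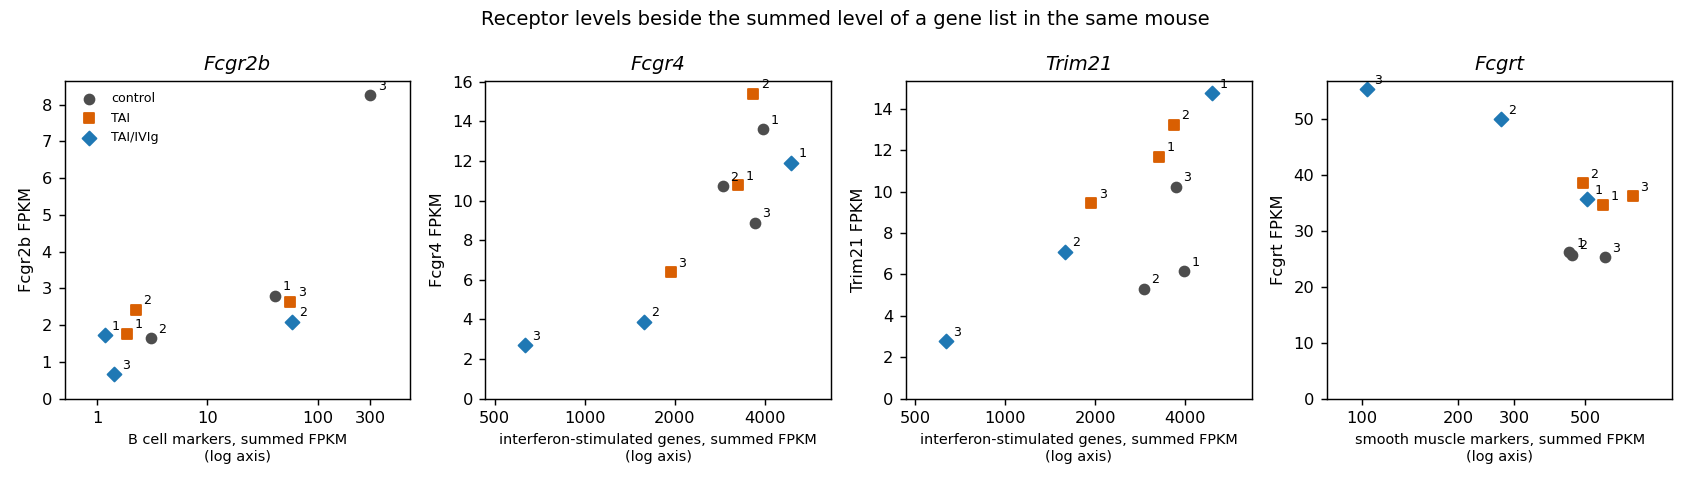
FPKM of 4 genes (vertical axes, from 0) against the summed FPKM of a gene list in the same mouse (horizontal axes, log scale), with 1 point per mouse, its number beside it and its group by colour and shape. Control mouse 3 stood apart in B cell markers and Fcgr2b, TAI/IVIg mice 2 and 3 had the lowest interferon-stimulated sums and the lowest Fcgr4, and the same pair had the lowest smooth muscle sums and the highest Fcgrt.

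Signalling downstream of the receptors was described by 2 lists. Of 21 genes for activating Fc receptor signalling, 4 fell and 1 rose in TAI against control mice. Over all genes tested, 26.1% were called lower and 8.81% higher in that comparison. Of the 21 log2 fold changes, 20 were negative, with a median of -0.84, where 33.6% of all genes tested were above 0. Those that fell included Plcg2, the phospholipase downstream of Syk (mean 10.9 to 3.97 FPKM; -1.22; limma adjusted p = 0.044), the Src-family kinase Fgr (2.99 to 0.945 FPKM; -1.03; limma adjusted p = 0.00959), and the adaptor Card9 (6.35 to 3.13 FPKM; -0.84; limma adjusted p = 0.034). Prkcd, protein kinase C δ, rose from 40.4 to 73.8 FPKM (0.85; limma adjusted p = 0.00232). With library medians set equal, 1 of the 21 was called lower and 1 higher. With same-numbered mice as pairs (replicate block), 4 of 21 were called in the fit of all mice and 10 of 21 in the fit of the 6 mice compared. Control mouse 3 stood apart in this list, whose summed level was 169, 139 and 367 FPKM in control mice 1, 2 and 3 and 156 to 195 FPKM in TAI mice. Control mouse 1 was thus within the TAI range and control mouse 2 below it. Btk, a kinase of B cells and myeloid cells, was at 2.30, 1.17 and 15.4 FPKM in control mice and at 0.612 to 2.47 FPKM in TAI mice. The list had 3 calls without control mouse 3, 3 without control mouse 2 or TAI mouse 2, and 2 without TAI mouse 1. The part of B cells in these values was not tested.

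Syk, the kinase that docks on the γ chain, was at 6.72, 5.44 and 20.6 FPKM in control mice 1, 2 and 3, at 2.31 to 5.04 FPKM in TAI mice and at 0.866 to 4.41 FPKM in TAI/IVIg mice. Inpp5d, the phosphatase SHIP1 through which FcγRIIb inhibits, was at 2.52, 1.72 and 10.6 FPKM in control mice, and at 0.698 to 2.48 FPKM in the 6 irradiated mice. Control mouse 3, with its high B cell transcripts, was the highest in both. Of 9 genes for inhibitory signalling limma called 0 in TAI against control mice (1 with same-numbered mice as pairs in the fit of the 6 mice compared), while 2 of them, Cbl and Csk, had an unadjusted p under 0.05, as did 46.2% of all genes, and in TAI/IVIg against control mice 3 fell, a comparison in which 37.4% of all genes were called lower. With library medians set equal, none of these 3 falls was called and 1 gene of the list was called higher.

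Among 9 other Fc receptors and immunoglobulin-binding lectins tested, 2 rose and 1 fell in TAI against control mice. The list had 6 calls with same-numbered mice as pairs in the fit of the 6 mice compared, and 0 without TAI mouse 1. Fcgbp, the IgG Fc binding protein of goblet cell mucus, was the most abundant and rose from 119, 138 and 92.8 FPKM in control mice 1, 2 and 3 to 286, 345 and 245 FPKM in TAI mice (1.32; SE 0.33; limma adjusted p = 0.0159). In TAI/IVIg mice it was at 113, 259 and 104 FPKM, and against TAI mice its log2 fold change of -0.99 was not called (limma adjusted p = 0.357). TAI/IVIg mice 1 and 3 were within the control range and mouse 2 was within the TAI range. The other 2 were the lectins Cd209b, which rose from a mean of 0.127 to 0.985 FPKM, and Clec4a2, which fell from 2.49 to 1.23 FPKM. The Cd209b values rested on 0 to 11 reads in control mice and 21 to 46 reads in TAI mice. With library medians set equal the fall of Clec4a2 was not called (-0.35; limma adjusted p = 0.271).

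**Figure D5:**
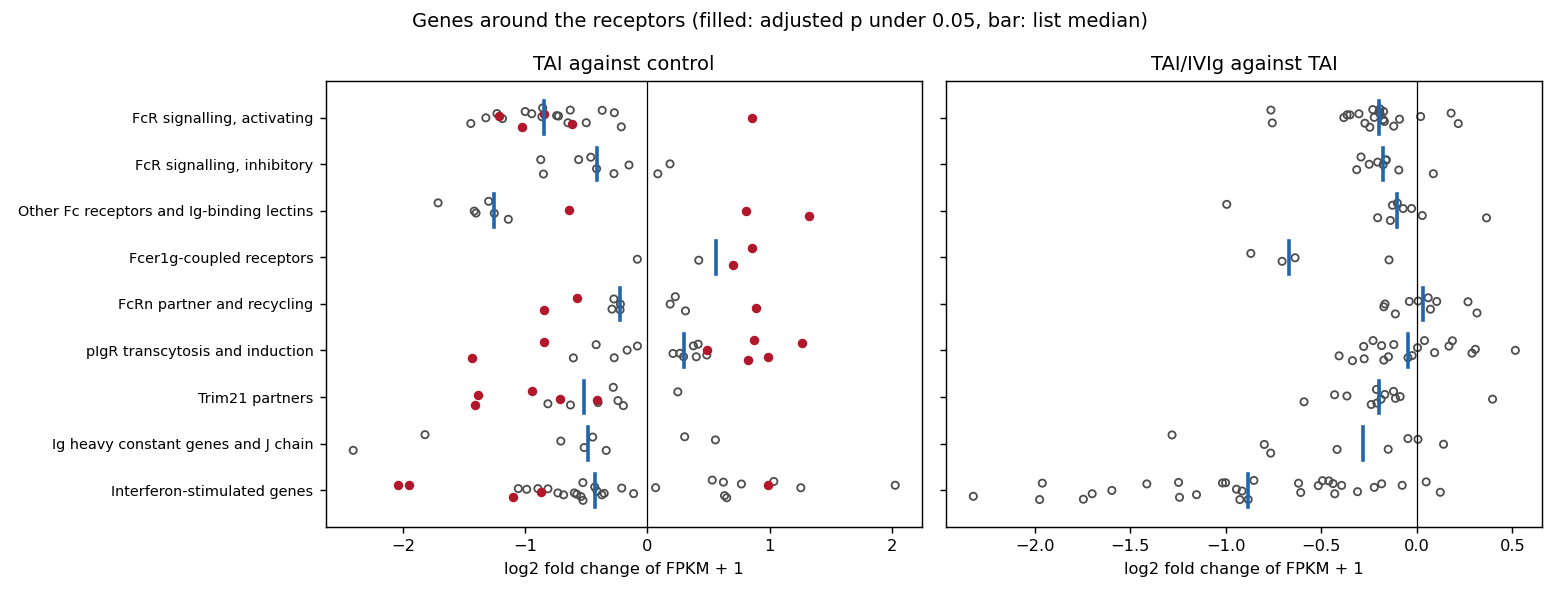
Log2 fold change of FPKM + 1 (horizontal axis) of every tested gene in 9 lists of genes around the receptors, with filled points for adjusted p under 0.05 in limma and blue bars for list medians, in TAI against control (left) and TAI/IVIg against TAI (right). No gene of these lists was called on the right, where the median of the interferon-stimulated genes was -0.88.

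The genes whose log2(FPKM + 1) profile over the 9 mice was most like that of each member were listed as a description, by Pearson's r among 13055 genes, where all points share group and library. For Fcgr2b these were Lsp1, Unc93b1 and Srgn (r = 0.989, 0.987 and 0.986), and for Fcgr4 they were Gbp6, Lilr4b and Ido1 (r = 0.974, 0.967 and 0.965). For Trim21 they were Helz2, Ppm1k and Serpina3g (r = 0.987, 0.982 and 0.968), and for Fcgr1 Pawr, Ppp1r2 and Cxcl9 (r = 0.973, 0.971 and 0.969). Fcgr3 was most like Col12a1, Osmr and Ppic (r = 0.970, 0.969 and 0.969), and among those closest to Fcer1g were Arhgap8 and Laptm4a (r = 0.981 and 0.977). The nearest to Fcgrt were Tmem19, Dhrs1 and Slc25a36 (r = 0.988, 0.985 and 0.985), and to Pigr Rcbtb1, Mob1b and 1810034E14Rik (r = 0.976, 0.974 and 0.964). No list of nearest genes held another of the 8 members. Among the members themselves, the closest pair was Fcgr1 and Fcgr4 (r = 0.89), followed by Fcer1g and Fcgr4 (r = 0.87) and Fcgrt and Pigr (r = 0.83), while Fcgrt and Fcer1g ran opposite (r = -0.88).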

How the data were processed

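The deposited table holds FPKM per gene and mouse, which the authors made from reads of jejunal RNA. Per the labels, the submitters' processing notes name FastQC, Trimmomatic, STAR, featureCounts and DESeq2 with mm10/GRCm38, without versions or roles, and the annotation is not given in the sources used here. Low FPKM values were whole multiples of 1 read (31684 of 31685 genes within 0.01 read), which gave library totals of 16280203 to 18242748 reads, and gene lengths implied by them equalled union exon lengths of GENCODE vM21 for all 8 members. Coordinates are from that annotation (GRCm38). Strand handling is not given in the sources used here.

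FPKM values were used as scaled by the authors. Log2(FPKM + 1) of the 13056 genes that reached an FPKM of 1 in 3 or more mice was modelled by group in limma 3.58.1 (R 4.3.3), with 1 estimate of spread over the 9 mice and a trended empirical Bayes step. Tests were two-sided, with Benjamini-Hochberg adjustment and a threshold of 0.05. The fit was tested on simulated data with equal numbers of raised and lowered genes. The simulation was built with no shift of the whole distribution and no outlying mouse, so it could not test how the fit handles those. Gene lists were described by counts and medians, with no test of a list. Named were all 8 members, up to 3 genes per list and direction with the largest called change (or up to 2 of smallest unadjusted p), listed partners and markers, and the 3 genes most alike. A few genes that this rule or the marker lists would name are not reported here, and the marker sums leave them out. The members and lists were chosen with earlier results of these data known. Same-numbered control and TAI mice deviated together (correlations of deviations from group means of 0.271, 0.241 and 0.308). The main fit did not use the numbers, so its calls are unpaired, and they were taken as pairs only in the replicate block. TAI/IVIg mice did not deviate together with the mice of the same number (against control 0.185, -0.136 and -0.296, against TAI 0.201, 0.041 and -0.067). Labels do not say what the numbers mean, and p-values measure the spread between these mice. Alternatives were the replicate block, each mouse left out, limma voom on recovered reads, other scalings (equal library medians, quantiles), other filters (none, mean FPKM 5 or more), a pseudocount of 0.1, an untrended prior and fits of the 6 mice compared.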

Additional observations from a re-analysis of the deposited data

How the results depend on the processing

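In TAI against control, 2 members were called, but 1 with a pseudocount of 0.1, 0 with no filter, 1 with limma voom on library totals, and 0 to 2 with a mouse left out. In TAI/IVIg against control, 2 were called, but 1 after quantile normalization and 1 to 4 with a mouse left out (4 when TAI/IVIg mouse 1 was left out, 1 when mouse 3 was). In TAI/IVIg against TAI the count was 0 under every alternative. With the filter at a mean FPKM of 5, only 6 members could be tested. The replicate block left the count in TAI against control at 2, and in TAI/IVIg against control, where the numbers do not pair the mice, it gave 3, with Pigr gained (limma adjusted p = 0.0497). Among the gene lists in TAI against control, the pairing moved by over 1.5 times only the 4 counts given with it in the report.

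Differences that turned sign were none of them calls. In TAI against control, Fcgr4 turned to 0.20 with equal library medians, 0.21 after quantile normalization and 0.21 with limma voom and median-ratio sizes, and with a mouse left out it ran from -0.35 to 0.22 (positive without control mouse 1 or TAI mouse 3). Fcgr2b ran from -0.87 to 0.036 with a mouse left out (positive without control mouse 3). For TAI/IVIg against control, Fcgr1 turned to 0.21 (medians) and 0.18 (quantiles) and ran from -0.81 to 0.12 with a mouse left out (positive without TAI/IVIg mouse 3). Trim21 turned to 0.46 (medians), 0.41 (quantiles) and 0.42 (voom, median-ratio), and ran from -0.53 to 0.50 (positive when control mouse 3 or TAI/IVIg mouse 3 was absent). Fcgr3 ran from -0.11 to 0.32 (negative when TAI/IVIg mouse 1 or 2 was absent). The cause was not tested. With 3 mice a group, 95% intervals were wide beside most of these differences.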
